A study of Mus musculus with 14 samples.

Results

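Newborn mouse epidermis holds a small number of leukocytes among its keratinocytes, and 9 genes that mark them are described here: Cd207, Cd74, Csf1r, Laptm5, Ptprc, Tyrobp, Fcer1g, Cd3e and Cd3g. They were chosen by name, as genes of Langerhans cells and T cells, with earlier results of these data known. All 9 were among the 24411 genes of the epidermis table. RNA sequencing profiles of 8 epidermis libraries and 6 libraries of cultured keratinocytes were compared. The p63alpha groups were Trp63-Ex13fl/fl mice or their keratinocytes, in which exon 13 of the p63 gene is flanked by loxP sites and the protein with the long alpha C-terminus is made. The p63beta groups were KRT14-Cre; Trp63-Ex13fl/fl, in which loss of exon 13 leaves the beta C-terminus. All groups carried the floxed allele. The KRT14 promoter drives Cre in keratinocytes, while the leukocytes of the epidermis arise from blood-forming tissues. Epidermis came from newborn animals and was lifted from the dermis after an overnight incubation in trypsin. There were 4 epidermis libraries for each genotype (p63alpha: EP07, EP08, WT3 and EP09; p63beta: KO2, EP10, EP11 and EP12) and 3 keratinocyte libraries for each genotype. Separate animals are not stated for the libraries, and the p-values therefore cover only library-to-library spread, which may be technical.

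Langerhans cells are macrophage-related antigen-presenting cells that settle in the epidermis before birth. They need the receptor CSF1R and its ligand interleukin-34, which keratinocytes make, and they acquire langerin (CD207) and much of their MHC class II only as they mature around and after birth. The resident T cells of mouse epidermis are the dendritic epidermal T cells, which carry an invariant gamma-delta T cell receptor and are selected in the fetal thymus with the help of Skint1. Both cell types signal through small adaptor proteins with an immunoreceptor tyrosine-based activation motif.

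The epidermis libraries held 21290056 to 44909616 estimated counts each, with EP09 the shallowest and KO2 the deepest. Expression is given as CPM (counts relative to each library's TMM-scaled total) or, where genes are compared with each other, as TPM (the authors' measure corrected for transcript length). The p63 gene itself separated the genotypes: of its 8 transcripts in the table, 5 had ranges that did not overlap between genotypes. One of these lay at 37.5 to 106.8 TPM in the p63alpha libraries and was listed at 0 in all 4 p63beta libraries, and another ranged from 8.02 to 23.6 TPM with the p63alpha genotype but from 133.8 to 249.9 TPM with p63beta. The column names of WT3 and KO2 carry the same code as those of the keratinocyte libraries, and the other 6 epidermis libraries carry a different code. What the codes stand for was not given in the sources used here.

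Across all genes, 32 of 13796 tested in epidermis (0.232%) passed an adjusted p of 0.05 with edgeR's quasi-likelihood test, 30 of them higher in p63beta (0.217%) and 2 lower (0.0145%). Of the 9 leukocyte genes, 8 had enough counts to be tested and 0 were called in either direction. The lowest unadjusted p among the 8 was 0.0568, for Csf1r, and every edgeR adjusted p was 0.9999. With DESeq2, which called 0.985% of genes, 0 of the 9 were called, and Csf1r and Fcer1g had unadjusted p of 0.0384 and 0.0348, under the 0.05 that 5.37% of genes passed in that fit. The fold change was negative (lower in p63beta) for 7 of 8, and its median was -0.57 on the log2 scale, beside a median of -0.00 and 50.7% negative over all genes tested. The tested genes tend to rise and fall together from library to library, Cd74 least, as shown further on. The 7 negative signs are therefore not 7 separate observations. In whole epidermis, fewer cells of a type and less RNA per cell cannot be told apart.

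**Figure D1:**
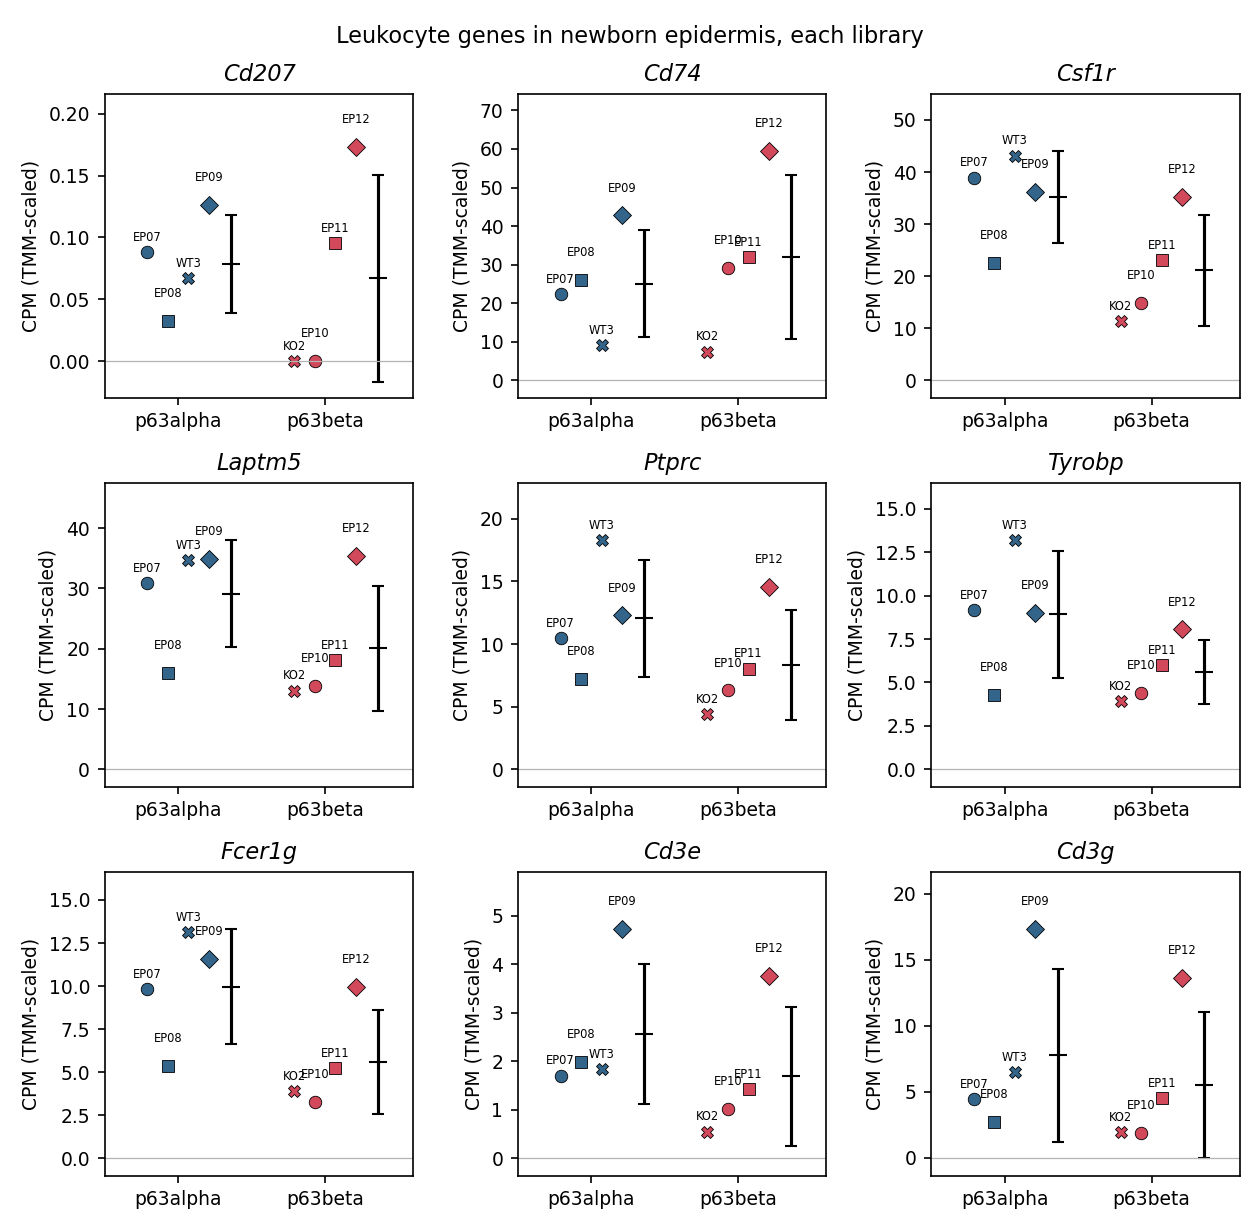
Expression of the 9 genes in each epidermis library, in TMM-scaled CPM on linear axes that differ between panels. Each point is 1 library, crosses are WT3 and KO2, and bars give the mean ± SD of 4 libraries. EP12 lies within or above the p63alpha range in every panel, and the groups overlap for every gene.

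Stretches of 3 promoters are shown because GAGGAA, the core recognised by the blood-cell factor PU.1, was searched for in the leukocyte genes. Of the 6 genes with a RefSeq promoter window (250 bases before to 50 after the start), 4 held these letters on either strand (Cd207, Laptm5, Ptprc and Cd3e), and Fcer1g and Cd3g did not. Of all genes with a window, 31.3% of 27025 held them. The matches are descriptions of letters and not of binding. Each line gives 30 bases on the gene's strand, 5′ to 3′, from RefSeq on GRCm38.p6, with the match in capitals (TTCCTC is GAGGAA on the other strand).
Cd207, chr6:83677958-83677987, minus strand: aagtcaggaggcTTCCTCatcaaagcccaa
Ptprc, chr1:138175446-138175475, minus strand: tgttttcctttaGAGGAAaattgagacgaa
Cd3e, chr9:45009694-45009723, minus strand: tgaggcgcggatTTCCTCagttaaccaagg
The matches began at positions -118, -158 and -100 relative to the RefSeq start, in that order. In the GENCODE annotation the Cd207 and Cd3e stretches lie outside any gene and the Ptprc stretch lies in an intron of the longer Ptprc gene model, while the Laptm5 match, at position -38, overlaps an annotated exon of Laptm5. Among the tested genes with a match, Laptm5 and Ptprc had log2 fold changes of -0.54 each and Cd3e of -0.61; Fcer1g and Cd3g, without one, had -0.84 and -0.50. Cd3g and Cd3e are close neighbours on chromosome 9, at 44969572 to 44980431 and 44998735 to 45009663, with 18303 bases between them.

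Cd207 encodes langerin, the C-type lectin that forms Birbeck granules and defines the mature Langerhans cell. It was close to the limit of detection in newborn epidermis. Its estimated counts were 3 in EP07, 1 in EP08, 2 in WT3 and 3 in EP09 (p63alpha), and 0 in KO2, 0 in EP10, 3 in EP11 and 4 in EP12 (p63beta). The highest level was 0.201 TPM, in EP12. A count of 0 allows up to 3 counts, which is 0.0748 CPM in KO2 and 0.122 CPM in EP10, counting error only. Cd207 did not pass the filter on low counts and was not tested; a difference between genotypes was not detectable at this depth. The list thus holds its defining Langerhans marker at or near 0 in every library, and the genes below are described as leukocyte genes by their names.

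Cd74 encodes the invariant chain, which guides MHC class II molecules to the compartment where they load peptide. Its CPM was 22.4, 26.1, 9.09 and 42.8 in EP07, EP08, WT3 and EP09, and 7.48, 29.1, 31.9 and 59.5 in KO2, EP10, EP11 and EP12. WT3 and KO2 were the lowest library of their genotype, while EP09 and EP12 were the highest. The means were 25.1 ± 13.9 (SD, n = 4) in p63alpha and 32.0 ± 21.3 (n = 4) in p63beta. On the log2 scale p63beta differed from p63alpha by 0.35 ± 0.58 (SE; adjusted p = 0.9999 with edgeR), a difference smaller than the spread within either genotype, and Cd74 was the only one of the 8 tested genes with a positive value.

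The class II genes whose products Cd74 escorts had a similar order of libraries; they were singled out after their values were seen. H2-Ab1 was at 7.88, 8.43, 2.71 and 12.2 CPM in EP07, EP08, WT3 and EP09, and at 1.45, 11.2, 8.87 and 20.9 CPM in KO2, EP10, EP11 and EP12. WT3 and KO2 were again the lowest of their genotype and EP09 and EP12 the highest, which also held for H2-Aa and H2-Eb1. The log2 fold changes were 0.43 ± 0.57 for H2-Aa, 0.44 ± 0.66 for H2-Ab1 and 0.35 ± 0.63 for H2-Eb1, with edgeR adjusted p of 0.9999 for each.

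Csf1r encodes the receptor tyrosine kinase for colony-stimulating factor 1 and interleukin-34. It was measured at 38.9, 22.6, 43.1 and 36.1 CPM in EP07, EP08, WT3 and EP09, and at 11.3, 14.9, 23.1 and 35.3 CPM in KO2, EP10, EP11 and EP12. EP11 and EP12 lay above EP08, so the genotypes overlapped. The means were 35.2 ± 8.87 CPM for p63alpha and 21.2 ± 10.6 CPM for p63beta (SD, n = 4 each), 1.67-fold apart. This log2 fold change of -0.74 ± 0.34 did not pass the test (edgeR adjusted p = 0.9999).

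Ligands that keratinocytes supply to these cells were examined as a list of 16 genes, of which 13 were tested, 0 were called and 8 had negative fold changes, with a median of -0.05. Csf1, a ligand of CSF1R, was at 24.0, 13.0, 15.4 and 21.1 CPM in EP07, EP08, WT3 and EP09, and at 4.79, 8.47, 12.8 and 16.3 CPM in KO2, EP10, EP11 and EP12. EP12 lay above WT3 and EP08, and the log2 fold change was -0.80 ± 0.36 (edgeR adjusted p = 0.9999); it was the list's only gene under an unadjusted 0.05, singled out after its values were seen. Il34, the other ligand, was at 147.9 CPM in WT3 and at 36.7 to 82.4 CPM in the other 7 libraries, with a log2 fold change of -0.47 ± 0.44. Cdh1, the E-cadherin by which Langerhans cells hold on to keratinocytes, was at -0.02 ± 0.16. The chemokine gene Cxcl14 was at -0.46 ± 0.25, and Il1b was at 1.26 ± 0.59, the largest value of the list. Skint1 was at -0.19 ± 0.20.

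Ptprc encodes CD45, the phosphatase on the surface of all nucleated blood cells, and Laptm5 a lysosomal membrane protein of blood cells that lowers antigen-receptor levels. Ptprc was at 10.5, 7.20, 18.3 and 12.3 CPM in EP07, EP08, WT3 and EP09, and at 4.41, 6.31, 8.04 and 14.5 CPM in KO2, EP10, EP11 and EP12. WT3 was the highest library and KO2 the lowest, and EP12 came second. Ptprc had a log2 fold change of -0.54 ± 0.39, which did not pass the test. Laptm5 was at 30.8, 16.1, 34.7 and 34.9 CPM in EP07, EP08, WT3 and EP09, and at 13.1, 13.8, 18.1 and 35.3 CPM in KO2, EP10, EP11 and EP12. The single highest Laptm5 value belonged to a p63beta library, EP12, and the other 3 p63beta libraries lay below 3 of the 4 p63alpha libraries. Its log2 fold change was -0.54 ± 0.35, which did not pass either.

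Tyrobp (DAP12) and Fcer1g (the common Fc receptor gamma chain) encode the adaptor proteins through which many myeloid receptors signal. Tyrobp was at 9.14, 4.31, 13.2 and 8.99 CPM in EP07, EP08, WT3 and EP09, and at 3.94, 4.40, 6.01 and 8.05 CPM in KO2, EP10, EP11 and EP12. EP08 lay below 3 of the 4 p63beta libraries, and the other 3 p63alpha libraries lay above all of them. Tyrobp had a log2 fold change of -0.67 ± 0.36 (edgeR adjusted p = 0.9999). Fcer1g was at 9.82, 5.37, 13.1 and 11.6 CPM in EP07, EP08, WT3 and EP09, and at 3.89, 3.26, 5.25 and 9.95 CPM in KO2, EP10, EP11 and EP12. Here EP12 alone kept the genotypes from separating, since the other 3 p63beta libraries lay below every p63alpha library. The log2 fold change of Fcer1g, -0.84 ± 0.40, was the most negative of the 8 and did not pass the test (edgeR adjusted p = 0.9999).

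Cd3e and Cd3g encode the epsilon and gamma chains of CD3, the signalling part of the T cell receptor complex. Cd3e was at 1.71, 1.99, 1.84 and 4.73 CPM in EP07, EP08, WT3 and EP09, and at 0.549, 1.02, 1.43 and 3.77 CPM in KO2, EP10, EP11 and EP12. EP09 and EP12 stood above the other 6 libraries in either genotype. Cd3g was at 4.47, 2.73, 6.48 and 17.3 CPM in EP07, EP08, WT3 and EP09, and at 1.97, 1.91, 4.51 and 13.6 CPM in KO2, EP10, EP11 and EP12, with the same pair of libraries on top. The log2 fold changes were -0.61 ± 0.59 for Cd3e and -0.50 ± 0.73 for Cd3g (edgeR adjusted p = 0.9999 for each).

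On the TPM scale, p63alpha levels fell in the order Cd74 (39.5 ± 24.6), Tyrobp (35.6 ± 11.5), Fcer1g (32.7 ± 9.81), Laptm5 (21.1 ± 6.32), Csf1r (15.3 ± 3.02), Cd3g (15.2 ± 14.3), Ptprc (3.76 ± 1.12), Cd3e (3.41 ± 2.22) and Cd207 (0.0950 ± 0.0543; SD, n = 4). Most neighbours in this order differed by less than the larger of their SDs; the exceptions were the steps from Fcer1g to Laptm5 and from Cd3e to Cd207. In p63beta the order was the same except that Cd3g, at 10.1 ± 10.4 TPM, stood above Csf1r. Between the lowest and the highest of the 8 libraries, TPM differed 12.3-fold for Cd3g, 12-fold for Cd3e and 9.58-fold for Cd74, and 3.59-fold to 4.45-fold for the other 5 genes above detection.

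EP09, the shallowest library, was the highest p63alpha library for Cd74, Laptm5, Cd3e and Cd3g. Without it, the p63alpha mean of Cd3g was 4.56 ± 1.88 CPM (SD, n = 3) in place of 7.76 ± 6.57 CPM (n = 4), and the log2 fold change turned from -0.50 to 0.27 ± 0.68. The mean of Cd3e went from 2.57 ± 1.45 to 1.85 ± 0.144 CPM, and its log2 fold change from -0.61 to -0.14 ± 0.60. Cd74 moved to 0.74 ± 0.59. The myeloid and pan-leukocyte genes moved little: Csf1r was at -0.72 ± 0.39, Tyrobp at -0.67 ± 0.41, Fcer1g at -0.76 ± 0.44, Ptprc at -0.53 ± 0.44 and Laptm5 at -0.44 ± 0.39. With the 7 libraries left, 0 of the 8 genes were called (every edgeR adjusted p 0.9995), beside 22 of 13949 genes in all (0.158%); 6 of 8 were negative and the median was -0.49.

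EP12, a p63beta library, bore on the values more than EP09 did. Without EP12 all 8 genes were negative, the median was -1.03, and 7 of the 8 had an unadjusted p under 0.05, as did 8.77% of all 14021 genes tested in that fit. None of the 8 was called (lowest edgeR adjusted p = 0.291), beside 28 genes in all (0.2%), and the median over all genes was -0.02. Csf1r was then at -1.10, Fcer1g at -1.27, Cd3e at -1.36 and Cd3g at -1.47, and Cd74 turned to -0.14. Without EP08, Csf1r, Tyrobp and Fcer1g had an unadjusted p under 0.05, as did 4.55% of all genes, and the median over the 8 was -0.76.

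**Figure D2:**
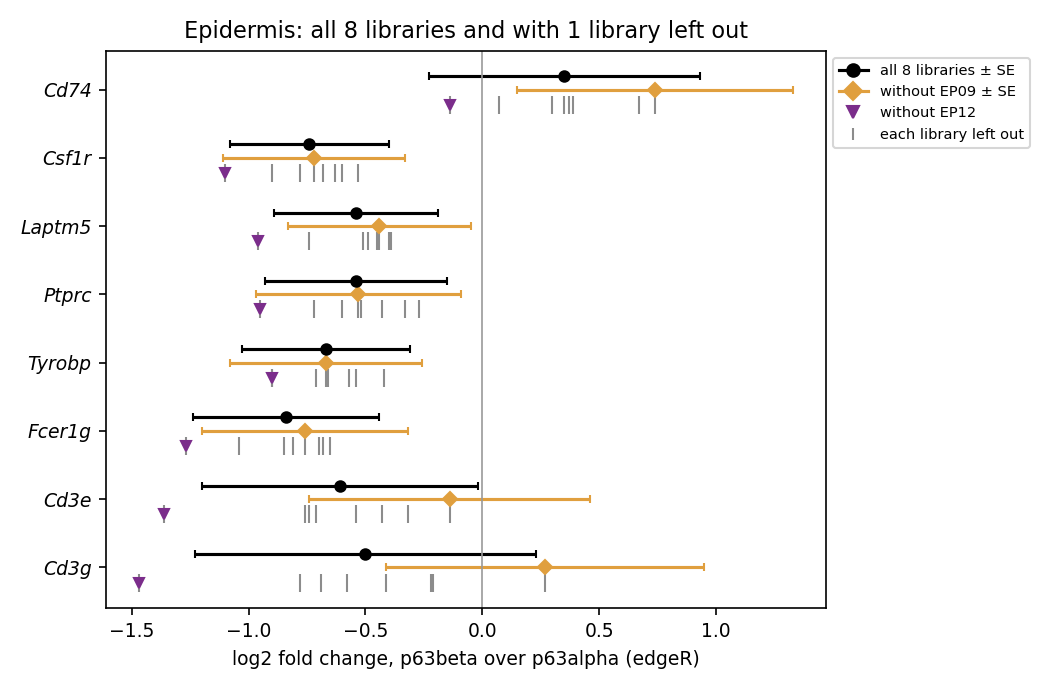
Log2 fold change of p63beta over p63alpha in epidermis for the 8 tested genes, from edgeR. Black circles use all 8 libraries and orange diamonds leave out EP09 (± SE); purple triangles leave out EP12 and grey ticks each library in turn. Leaving out EP09 moves Cd3e and Cd3g towards or past 0, and the value without EP12 is at or near the most negative end for every gene.

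The column-name code also moved with the result. Within the 6 libraries with EP numbers, the means differed by less than the SD for 8 of 8 genes. For example, Ptprc was at 9.98 ± 2.57 CPM in p63alpha and 9.63 ± 4.34 CPM in p63beta (SD, n = 3 each), and Csf1r at 32.5 ± 8.72 and 24.4 ± 10.2 CPM. A fit on these 6 libraries gave a median log2 fold change of -0.29 for the 8 genes. WT3 against KO2, with 1 library each and no test, was 3.81-fold higher for Csf1r, 4.15-fold for Ptprc, 3.35-fold for Tyrobp, 3.38-fold for Fcer1g, 2.65-fold for Laptm5, 3.35-fold for Cd3e, 3.29-fold for Cd3g and 1.22-fold for Cd74. With a term for the code in the fit, the median over the 8 genes was -0.63 and 0 were called, beside 0.275% of all genes.

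Libraries tended to be high or low for the leukocyte genes as a whole. EP09 and EP12 were among the 4 highest libraries for 8 of 8 tested genes, and WT3 for 7 of 8, Cd74 being the exception. KO2 was among the 2 lowest for 8 of 8, and EP10 for 6 of 8. Over the 8 libraries, Csf1r, Laptm5, Ptprc, Tyrobp and Fcer1g had pairwise Pearson correlations of log2 CPM of 0.92 to 0.97, and Cd3e with Cd3g had 0.92. Between those genes and Cd3e or Cd3g the correlations ran from 0.58 (Tyrobp with Cd3e) to 0.88 (Laptm5 with Cd3g). Cd74 stood apart, with 0.05 with Tyrobp and 0.15 with Fcer1g but 0.70 with Cd3e. Each point is 1 library, and the genes of a library have its depth, scaling and genotype in common; these correlations are descriptions over 8 points and were given no test.

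Krt14, the basal keratinocyte keratin that also supplies the promoter of the Cre transgene, differed between the same libraries. It was at 3986, 5384, 1824 and 3758 CPM in EP07, EP08, WT3 and EP09, and at 8014, 7781, 7337 and 1769 CPM in KO2, EP10, EP11 and EP12. The 4 libraries lowest in Krt14 (EP12, WT3, EP09 and EP07) were the 4 highest in Csf1r. Krt5 was lowest in the same 4 libraries, but other genes of the keratinocyte list were not. Trp63 was highest in EP12 (764.7 CPM), and Itga6 and Itgb4 were highest in EP09 (473.9 and 258.6 CPM). Col17a1 was at 1346 CPM in EP09 and 1221 CPM in EP12, above EP07 and EP08. WT3 was the lowest library for Trp63, Itga6, Itgb4 and Col17a1. The log2 fold change of Krt14 was 0.74 ± 0.45 and did not pass the test. The summed TPM of the 9 measured genes of the keratinocyte list was 83270 to 114300 in p63alpha and 89390 to 112500 in p63beta. The part of keratinocyte content in the leukocyte values was not tested.

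**Figure D3:**
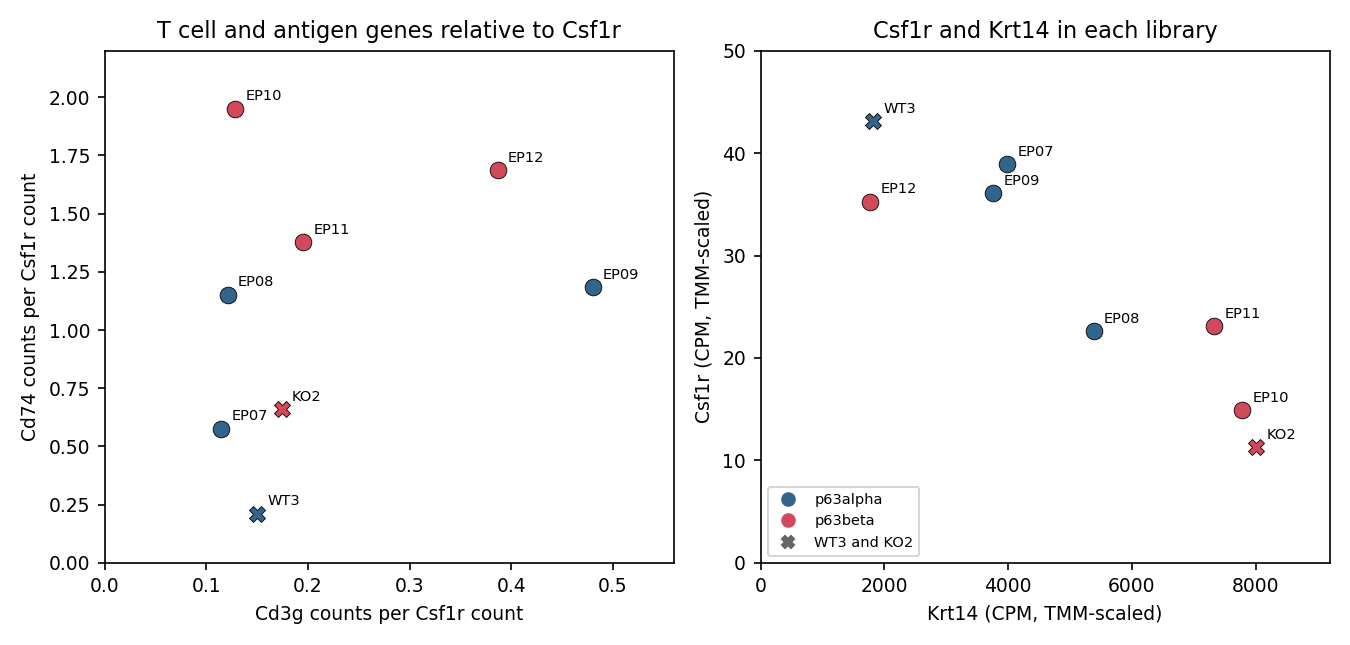
Left, estimated counts of Cd74 and of Cd3g per count of Csf1r in each epidermis library. Right, Csf1r against Krt14, both in TMM-scaled CPM; blue points are p63alpha, red points p63beta and crosses WT3 and KO2. EP09 and EP12 have the most Cd3g per Csf1r count, and EP12, WT3, EP09 and EP07 combine low Krt14 with high Csf1r.

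The genes whose profiles over the 8 libraries were most like the mean profile of the 8 tested genes were Gbp4 (Pearson r = 0.995), Sepsecs (0.978), Atp8a2 (0.976), Grap2 (0.974), Mfsd2a (0.974), Chga (0.973), Ctss (0.972), Kidins220 (0.969), C1qa (0.968) and Pik3cd (0.968). Ctss encodes cathepsin S, which trims the invariant chain, and C1qa a chain of complement C1q made by macrophages. Over the 7 libraries without EP09, 3 of the 10 most like genes were the same: Gbp4, Sepsecs and Kidins220. Ctss and C1qa were no longer among the 10. The genes that came in were Fam83e, Zmynd15, Rab8b, Mndal, Skint6, Plxdc2 and Atrnl1. Gbp4 averaged only 0.394 CPM. No test was made on these likenesses.

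Other genes of the same cell types were described by lists. Over all genes tested, 50.7% had negative fold changes. The genes of a list were measured in the same libraries, so their signs are not separate observations. Of 20 macrophage and general myeloid genes, all were tested, 0 were called and 18 had negative fold changes, with a median of -0.60. Cx3cr1, the fractalkine receptor of macrophages and Langerhans cell precursors, was at 7.85, 5.60, 16.7 and 9.58 CPM in EP07, EP08, WT3 and EP09, and at 0.698, 3.95, 1.24 and 6.15 CPM in KO2, EP10, EP11 and EP12. EP12 alone lay above a p63alpha library, EP08, and the log2 fold change of -1.73 ± 0.63 did not pass the test (edgeR adjusted p = 0.827). C1qa was at -0.60 ± 0.35 and C1qb, a second chain of C1q, at -0.72 ± 0.38. Of the list's 20 genes, 2 had an unadjusted p under 0.05, Cx3cr1 and the mannose receptor gene Mrc1 (-0.66 ± 0.27), beside 4.64% of all genes. The summed level of the list was 153.0 to 304.2 TPM in p63alpha and 110.6 to 250.9 TPM in p63beta.

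Of 24 T cell genes, 20 were in the table, 18 were tested and 0 were called. Of the 18, 17 were negative, with a median of -0.48, beside 50.7% negative over all genes. Thy1, a surface glycoprotein that dendritic epidermal T cells carry, was at -0.21 ± 0.29, and Itgae, the integrin chain that binds E-cadherin, at -0.54 ± 0.56. Ltb, which encodes lymphotoxin beta, was the list's only positive gene, at 0.97 ± 0.47 (edgeR adjusted p = 0.9999); its levels were 0.161 to 0.464 CPM in p63alpha and 0.489 to 0.699 CPM in p63beta, without overlap, as for 3.07% of all genes. The list summed to 38.5 to 97.5 TPM in p63alpha, with EP09 highest, and to 25.2 to 59.0 TPM in p63beta, with EP12 highest.

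Of 22 genes for antigen presentation and Langerhans cells, 18 were tested, 0 were called and 12 were negative, with a median of -0.17. Ctss was at -0.59 ± 0.44, Epcam at -0.14 ± 0.17 and Cd83, a marker of mature dendritic cells, at -1.13 ± 0.74. Mfge8, the milk fat globule protein, was singled out after its values were seen. It was at 15.7 to 24.8 CPM in p63alpha and 30.2 to 48.7 CPM in p63beta, with no overlap, as for 3.07% of all genes. The difference, a log2 fold change of 1.01 ± 0.22, was not called by edgeR (adjusted p = 0.175). It was called by DESeq2 (adjusted p = 0.00601), as were 0.985% of genes.

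Markers of other cells that an epidermal sheet can hold gave 0 calls in edgeR. In the mast cell list 1 of 9 measured genes was tested (Gata2, 2.19 ± 1.19), Ms4a2 and Fcer1a were at 0 in all libraries, and the list summed to at most 4.17 TPM. Gata2 was at 3.245 CPM in EP12 and at 0 to 0.635 CPM in the other libraries, so its value rests on 1 library. Of B cell genes 2 were tested, both negative, with a summed level of 1.11 to 2.38 TPM over all libraries. In the neutrophil list Elane and Camp were at 0, while S100a8 (2.43 ± 1.25) and S100a9 (2.30 ± 1.09), which stressed keratinocytes also make, were higher on average in p63beta without passing the test. The p63beta library EP12 was at 0.130 CPM for S100a8 and 0.346 CPM for S100a9. KO2, EP10 and EP11 were at 7.01 to 13.7 CPM and 17.3 to 33.0 CPM. The p63alpha libraries were at 0 to 3.12 CPM and 0.401 to 7.06 CPM. All 8 melanocyte genes were tested and had positive fold changes, with a median of 1.0. With edgeR, 5 of the 8 had an unadjusted p under 0.05, beside 4.64% of all genes. Dct, a melanin-synthesis enzyme, was at 1.02 ± 0.24. It was not called by edgeR (adjusted p = 0.228) and was called by DESeq2 (adjusted p = 0.0148). The summed level of the list was 84.4 to 243.0 TPM in p63alpha and 251.5 to 367.2 TPM in p63beta. The fibroblast list summed to 325.9 to 536.6 TPM in p63alpha and 253.1 to 409.3 TPM in p63beta, with a median log2 fold change of -0.53 over 9 tested genes. The endothelial list stayed at or below 4.92 TPM. In the muscle list 2 of 8 measured genes were tested, Acta1 (3.55 ± 0.96) and Mylpf (-0.37 ± 0.34). Acta1 was at 0.0322 to 0.633 CPM in p63alpha and 0.606 to 6.92 CPM in p63beta. It was not called by edgeR (adjusted p = 0.403) and was called by DESeq2 (adjusted p = 0.00452). The muscle list summed to 7.32 to 12.9 TPM in p63alpha and 7.27 to 15.5 TPM in p63beta. The erythroid list summed to 312.7 TPM in EP09, 305.6 TPM in EP12 and 242.4 TPM in KO2. It summed to 57.5 to 137.3 TPM in the other libraries, with a median log2 fold change of 0.17 over 4 tested genes. The part of these cells in the leukocyte values was not tested.

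Cd74 and Ptprc were listed with 2 and 3 transcripts, and the other 7 genes with 1 each. The longer Cd74 transcript, which has 9 exons, made up 16.9% ± 4.58 of Cd74 TPM with p63alpha and 16.7% ± 4.56 with p63beta (SD, n = 4 each), and the 8-exon transcript made up the rest. For Ptprc, whose alternative exons yield the long and short forms of CD45, the 30-exon transcript made up 53.7% ± 38.3 in p63alpha and 82.2% ± 7.46 in p63beta. In p63alpha its share was 84.9% in EP07, 53.0% in EP08 and 76.9% in WT3, and it was listed at 0 in EP09, where a 29-exon transcript took 93.6%. In EP08 a 33-exon transcript took the other 47.0%. The 29-exon transcript took 18.1% in WT3 and was listed at 0 in the other 6 libraries. Whether short reads could tell these transcripts apart in EP09 was not tested.

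Cultured keratinocytes held almost no Cd3e or Cd3g, and their levels of the myeloid genes differed widely between libraries. The T cell list nevertheless summed to 28.8 to 42.0 FPKM (the authors' length-corrected level), led by Thy1, at 10.8 to 22.4 FPKM, and Cd28, at 8.01 to 13.1 FPKM. The macrophage and general myeloid list summed to 113.7 FPKM in p63alpha library 1 and 94.6 FPKM in p63beta library 1. In the other libraries it summed to 14.7 to 38.5 FPKM. Totals were 20688027 to 30066041 counted read pairs per library, and 6 of the 9 genes were tested. Csf1r had 451, 105 and 45 counts in p63alpha libraries 1, 2 and 3, and 402, 40 and 154 in p63beta libraries 1, 2 and 3. Library 1 of either genotype was the highest for Csf1r, and the same was true of Laptm5, Ptprc, Tyrobp and Fcer1g. Fcer1g had 168, 40 and 8 counts in p63alpha and 119, 9 and 28 in p63beta, and Tyrobp 129, 37 and 16 against 145, 3 and 24. The spread within each genotype exceeded the difference between them. The log2 fold changes were -0.20 ± 1.03 for Csf1r, -0.38 ± 1.02 for Laptm5, -0.36 ± 0.92 for Ptprc, -0.27 ± 1.28 for Tyrobp and -0.64 ± 1.22 for Fcer1g.

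Cd74 in culture was highest in library 1 of p63alpha but in library 3 of p63beta. It had 44, 11 and 17 counts in p63alpha and 49, 18 and 195 in p63beta, where library 3 reached 6.83 CPM. That library also stood out for the muscle list, at 1244 FPKM summed against 20.8 to 98.8 FPKM in the other 5, for the erythroid list, at 30.3 FPKM against at most 2.84 FPKM, and for the endothelial list, at 17.9 FPKM against at most 7.26 FPKM. The log2 fold change of Cd74 was 1.63 ± 0.96 (edgeR adjusted p = 0.839), and it was 0.29 without p63beta library 3. Cd207 had 1 count in p63beta library 3 and 0 in the other 5 libraries. Cd3g had 1, 1 and 1 counts in p63alpha and 11, 3 and 1 in p63beta, and Cd3e 4, 3 and 0 against 6, 9 and 1. These 3 genes did not pass the filter on low counts. Of the 6 genes tested in keratinocytes, 0 were called, beside 14 of 13820 genes in all (0.101%), with 0.0941% of genes called higher and 0.00724% lower in p63beta. At an unadjusted p under 0.05 there were also 0 of the 6, beside 6.85% of all genes. DESeq2 called 0 of the 9, beside 216 of 13765 genes (1.57%).

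**Figure D4:**
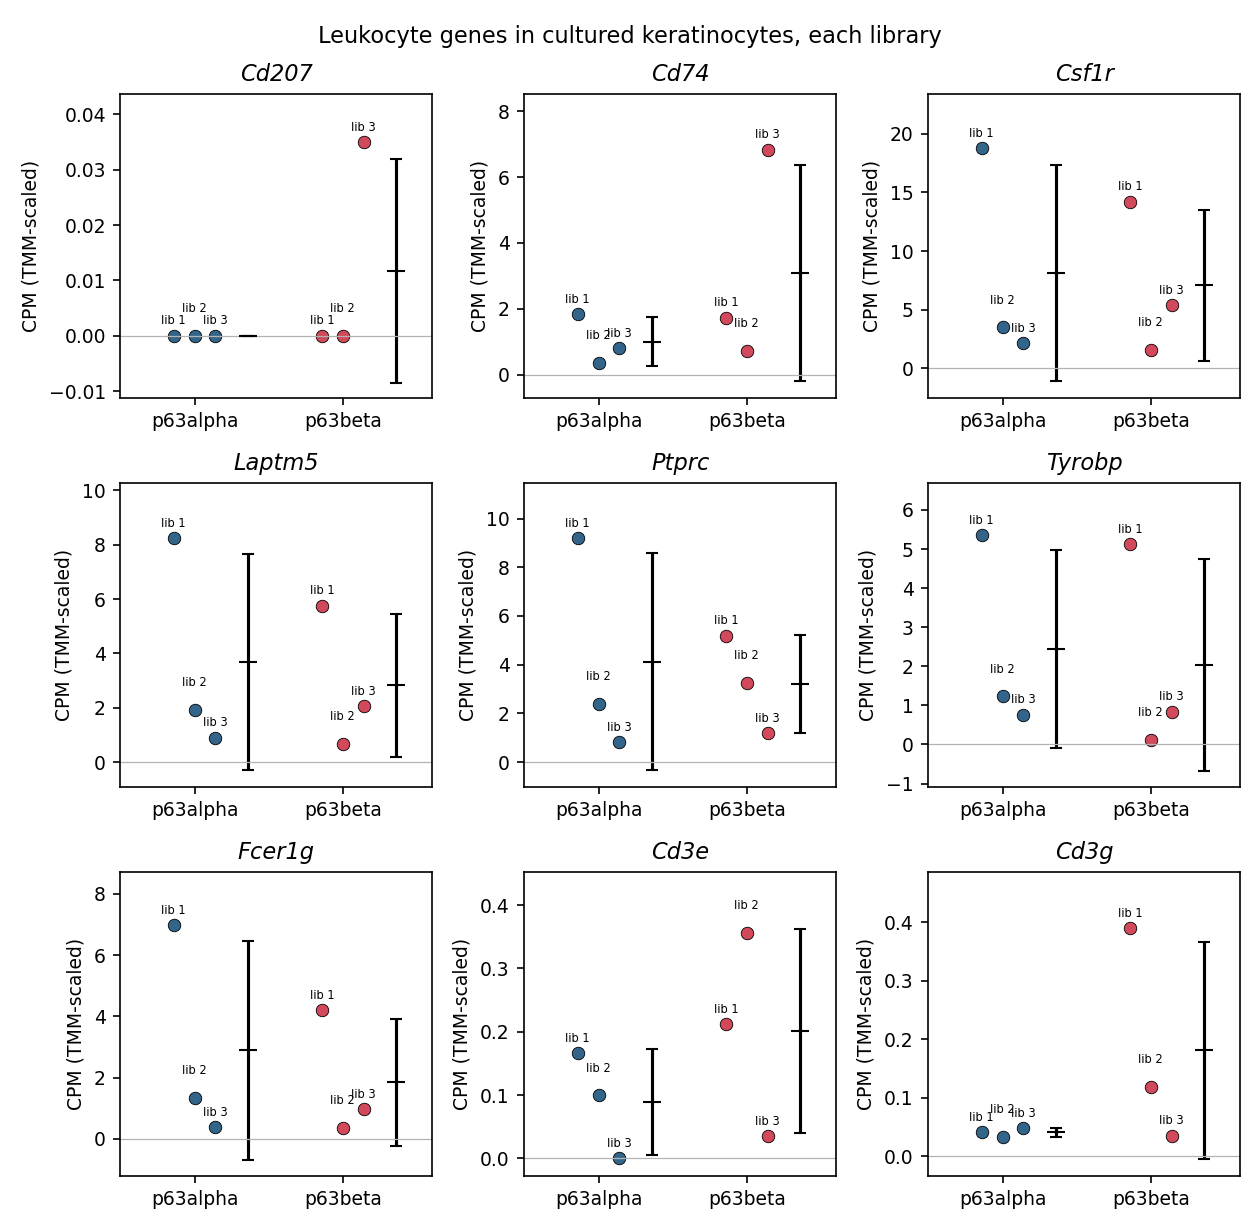
Expression of the 9 genes in each cultured keratinocyte library, in TMM-scaled CPM on linear axes that differ between panels. Each point is 1 library and bars give the mean ± SD of 3 libraries. Library 1 of each genotype is the highest for Csf1r, Laptm5, Ptprc, Tyrobp and Fcer1g, and library 3 of p63beta for Cd74.

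In the authors' deposited table for epidermis, the adjusted p of the leukocyte genes ranged from 0.767 (Fcer1g) to 0.998, with log2 fold changes of -0.74 for Csf1r, -0.84 for Fcer1g and 0.35 for Cd74. In the authors' deposited table for keratinocytes, the adjusted p ranged from 0.872 to 0.9998, with no value for Cd207, Cd3e and Cd3g.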

How the data were processed

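Epidermis values were estimated counts and TPM that the authors obtained with Salmon, per the submitters' processing notes; its version was not given in the sources used here. Keratinocyte values were read counts and FPKM deposited by the authors, with counts from featureCounts 1.5.2 on STAR alignments to mm10, strand setting 2 and a minimum overlap of 25 bases, per the file headers. The authors also deposited DESeq2 tables of log2 fold changes and p-values; their 14 per-library columns were not used. The epidermis columns are named WT and KO, read as p63alpha and p63beta.

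Estimated counts were rounded. Genes were filtered with filterByExpr, scaled by TMM and tested with edgeR 4.0.16 (quasi-likelihood, robust; R 4.3.3) on the libraries of 1 tissue, with Benjamini-Hochberg adjustment over all genes tested and a threshold of 0.05. DESeq2 1.42.0, limma 3.58.1 on log2(TPM + 1) or log2(TPM + 0.1), other scaling, no filter, a term for the column-name code and each library left out were alternatives. The fit was tested on simulated data. Fold changes are p63beta over p63alpha. The SE of an edgeR log2 fold change is its absolute value divided by the square root of the test's F statistic, and includes spread between libraries. Limits on counts of 0 cover counting error only.

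The members and the 13 other gene lists were chosen with earlier results of these data known. Named genes were the members and, in each other list, called genes, the 2 highest in mean CPM and the largest absolute fold change, plus the 10 genes whose log2(CPM + 0.5) profile was most like the members' mean standardised profile, with and without EP09; others are said to be chosen after their values were seen, or are given as background levels. A search of protein sequences for the activation motif was not run. Sequence windows are from RefSeq on GRCm38.p6. Gene models are from GENCODE vM21.

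Same-numbered keratinocyte libraries deviated together from their group means (r = 0.572, 0.498 and 0.173 for numbers 1, 2 and 3, over 13820 genes). Number 3 paired no more closely than libraries of unlike number (0.179 for p63alpha 2 with p63beta 3, 0.163 for p63alpha 3 with p63beta 2). The numbers come from the labels. A fit with the number as a block called 0 members, and 37 genes in all (0.268%) in place of 14.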

Additional observations from a re-analysis of the deposited data

Results flagged for a closer look

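Of the 18 groups of 4 epidermis libraries examined for a library far from the others, 1 stood out: Cd3e in p63alpha, where EP09 was at 4.73 CPM and the other 3 libraries were at 1.71 to 1.99 CPM. Chance flags about 1 in 20 such groups. EP09 was also the highest library for Cd3g, at 17.3 CPM.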

How the results depend on the processing

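Over 16 alternatives in epidermis and 10 in keratinocytes, 0 of the 9 genes were called in any. Direction changed in epidermis for Cd74, whose log2 fold change with 1 library left out ranged from -0.14 to 0.74, and for Cd3g, from -1.47 to 0.27; the other 6 tested genes stayed negative in all 16. In keratinocytes, leaving out 1 library gave -1.22 to 1.30 for Csf1r, -1.42 to 0.97 for Laptm5, -0.90 to 0.97 for Ptprc, -2.33 to 0.99 for Tyrobp and -2.10 to 1.07 for Fcer1g, positive for all 5 without p63alpha library 1. With the replicate number as a block, Ptprc was at 0.02, and no member's call changed. Among the other listed genes in epidermis, 0 were called by edgeR and 4 by DESeq2 (Acta1, Dct, Mfge8 and Tyrp1), where 155 of 15741 genes were called in all (0.985%). The limma fits on TPM moved the median of all genes to -0.09 and -0.10, and that of the 8 leukocyte genes to -0.64 and -0.72. The cause of these changes was not tested. No paired analysis was possible because the epidermis columns do not carry the labels' replicate numbers. Depth limits Cd207 in either tissue and Cd3e and Cd3g in keratinocytes.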

Other observations

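Relative to Csf1r, Cd74 differed between the genotypes within either column-name code. Cd74 counts per Csf1r count were 0.576, 1.15 and 1.19 in EP07, EP08 and EP09, and 1.95, 1.38 and 1.69 in EP10, EP11 and EP12. They were 0.211 in WT3 and 0.661 in KO2. The ratio was higher in every p63beta library with an EP number than in every such p63alpha library, and higher in KO2 than in WT3. The same held for 912 of 13795 genes (6.61%) set against Csf1r. This ratio was chosen after the values were seen, and no test was made. Cd3g per Csf1r count was 0.480 in EP09 and 0.387 in EP12, and 0.115 to 0.195 in the other 6 libraries.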
